A study of Arabidopsis thaliana with 36 samples.

Results

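Some introns of Arabidopsis thaliana are spliced out in one annotated transcript of a gene and kept as exon in another, and these annotated retained introns are the regions described here. They were taken from the authors' tables of splicing comparisons as every called bin with an intron retention event (IR or IR*) that the tables mark as exon. What the asterisk stands for is not given in the sources used here. There were 755 such entries, for 362 distinct bins in 347 loci, of 56407 entries in the 12 tables and of 33404 entries that are bins with a fold change. The same tables hold 29711 entries for intron bins, which are the stretches marked as intron, and 2892 for other exon bins. Of the 362 bins, 352 equalled an intron of the RefSeq annotation and 348 an intron that another transcript of the gene keeps whole inside an exon. The label therefore fitted all but a few bins. The annotation holds 10504 introns of this kind, and 3.31% of them were called at least once as such an exon bin. Of the distinct intron bins called, 850 also equalled an intron of this kind, so intron bins are not free of them.

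Whole seedlings of 6 genotypes were sequenced as total RNA depleted of ribosomal RNA, giving 12 groups of 3 libraries each. These genotypes were the triple mutant swap1-1 sfps-2 rrc1-3, the double mutants swap1-1 sfps-2, swap1-1 rrc1-3 and sfps-2 rrc1-3, the single mutant swap1-1, and the Col-0 wild type (WT), the background the labels give for swap1-1. Germination was started with white light, and at 4 days in the dark the seedlings were given 3 h of red light (7 µmol photons per m2 and s) or kept dark. Below, the mutants are called the triple mutant, swap1sfps, swap1rrc1, sfpsrrc1 and swap1. Each mutant genotype is 1 allele combination, and whole seedlings mix all their cell types. Fewer cells of a type and less RNA per cell cannot be told apart in such samples. Whether the 3 libraries of each group stem from separate cultures is not in the labels, so the authors' FDR values measure the spread between these libraries, which may be technical. No value of a single library was analysed, so bins are given by the authors' fold change and FDR over groups, always of red light over dark, or of a mutant over the genotype it is set against. A bin counts as higher or lower when the authors called it with a positive or negative fold change.

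Introns are recognised by the spliceosome at a 5′ splice site that starts with GT, and at a 3′ splice site that ends with AG behind a stretch rich in pyrimidines. SFPS, RRC1 and SWAP1 are splicing factors that act in phytochrome light signalling. In plants, intron retention is the most common kind of alternative splicing. An intron kept in the 5′ UTR changes the leader ahead of the protein, while one kept in the coding sequence often brings a stop codon into the reading frame. ASpli, the authors' tool, is built to compare the coverage of a bin with that of its gene.

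The splice sites of the introns that the results turn on are shown first, because their 3′ ends differ in the base before the final AG. Each line gives the 5′ site with 6 exon bases and 14 intron bases, where capitals mark the first 2 intron bases, or the 3′ site with the last 24 intron bases and 6 exon bases, where capitals mark the last 3 intron bases. They were read from the RefSeq genome TAIR10.1 along the strand of the gene. The first 4 introns lie in 5′ UTRs and changed in opposite directions in red light and in darkness, and the last 4 were among the most often called or most changed between mutants and WT.
ZW18 intron 1, 5′ site: ctacagGTtctgtttctgct
ZW18 intron 1, 3′ site: gtgtgcttattgctttatctgCAGattctc
LUH intron 1, 5′ site: cgtcagGTatgtgaattcga
LUH intron 1, 3′ site: tttatattttctctgtatgtgTAGcagcaa
SPP2 intron 1, 5′ site: cacaagGTtttgtgattctt
SPP2 intron 1, 3′ site: gattcttttaatctgtcattgAAGgaactg
ATPK7 intron 1, 5′ site: gatcagGTtatagtttcttt
ATPK7 intron 1, 3′ site: aacttttaaaaacctttctttCAGgaattt
MSRB2 intron 3, 3′ site: gttaatagtgttactagtttgCAGagaaaa
NF-YC9 intron 1, 3′ site: agttctgtttttttattctggTAGtgaatg
AT2G25730 intron 35, 3′ site: taaatttttcttgcaaaaaaaAAGgaaaaa
HISN5B intron 7, 3′ site: aagaaaacaagtctgacgcttTAGattttt

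In red light most members were higher in the mutants, and in darkness about as many were lower as were higher. Between swap1 and WT in red light, 130 of 176 called members were higher, or 73.9%, against 91.7% of all called bins and 95.2% of intron bins. In darkness, 45 of 94 were higher and 49 lower, which is 47.9% higher, against 81.8% of all called bins and 85.2% of intron bins. Between the triple mutant and WT in red light, 175 of 219 were higher, or 79.9%, against 91.3% of all called bins and 94.1% of intron bins. In darkness, 80 of 150 were higher, or 53.3%, against 82.4% of all called bins and 85.8% of intron bins. In all 4 of these comparisons the share of members that were higher lay under that of intron bins, by less in red light than in darkness. Other exon bins were also mixed, with 55.1% higher in red light and 57.1% in darkness for swap1, and 61.0% and 53.5% for the triple mutant. Bins are not replicates, so these shares carry no test.

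Red light moved members mostly down in WT and mostly up in swap1, as it did intron bins. In swap1, 28 of 43 members were higher in red light, or 65.1%, against 67.4% of all called bins and 69.4% of intron bins. In WT, 8 of 42 were higher, against 28.4% of all called bins and 27.2% of intron bins. These shares lie near those of the other bins and are no result about the retained introns. Few bins of any kind, and so few members, separated the triple mutant from the double mutants. Members were 2.09% of called bins against sfpsrrc1 in red light and 2.22% in darkness, where they were 2.28% and 2.58% against WT. Against sfpsrrc1, which keeps SWAP1, 9 of 12 were higher in red light where 82.0% of all called bins were, and 8 of 13 in darkness where 79.9% were. Against swap1sfps in darkness, 1 of 2 was higher where 64.7% of 34 called bins were. Against swap1rrc1 in darkness, 0 of 4 were higher where 36.5% of 104 called bins were. No member was called in the triple mutant against swap1sfps or swap1rrc1 in red light, where only 24 and 26 intron bins were called. The sign in the tables against swap1sfps and swap1rrc1 was read as triple over double mutant, like that of the other tables. No other values settle it.

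**Figure D1:**
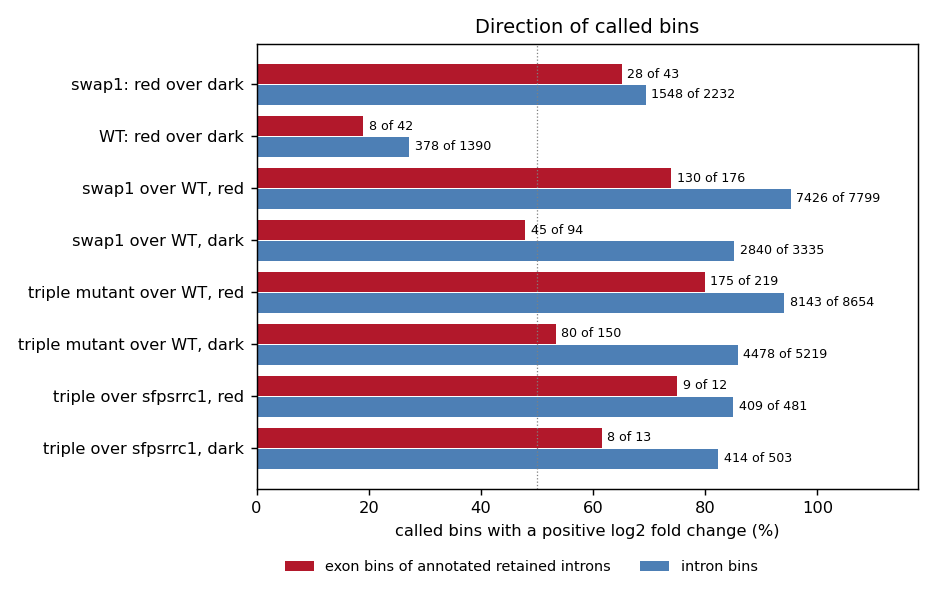
Share of called bins with a positive log2 fold change in 8 comparisons, in percent, for exon bins of annotated retained introns (red) and for intron bins (blue), with the counts beside each bar. Members lie under intron bins in every comparison drawn, at 47.9% against 85.2% for swap1 over WT in the dark.

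Most changes were moderate. The median absolute log2 fold change of members was between 0.67 and 0.78 in the 6 comparisons of light and of mutants with WT. The lowest value was -2.65 in the triple mutant in darkness and the highest 3.38 in swap1 under light. The 3.38 belongs to CLV3, the peptide ligand that limits stem cells in the shoot meristem, with an FDR of 0.0113 in the authors' deposited table. The -2.65 belongs to CDKB1;2, a cyclin-dependent kinase of the cell cycle, with an FDR of 0.00241 in the authors' deposited table. The CDKB1;2 locus overlaps another gene, as did the loci of 77 of the 362 bins, and reads of such genes may be shared.

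**Figure D2:**
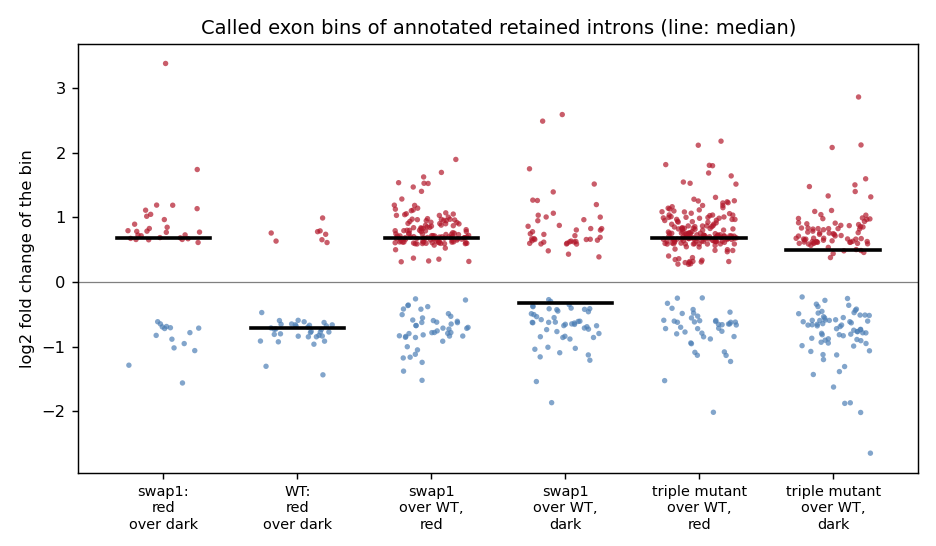
Log2 fold change of every called member in the comparisons of light and of mutants with WT, 1 point per bin, red above 0 and blue below, with the median as a black line. The median is 0.68 for swap1 over WT in red light and -0.33 for swap1 over WT in the dark.

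Of the 362 bins, 153 were called in 1 comparison, 107 in 2, 50 in 3, 35 in 4, 5 in 5, 11 in 6 and 1 in 7. Of the 12 bins called in 6 or 7 comparisons, 5 were higher in swap1 and in the triple mutant than in WT in both lights, 6 were higher in the triple mutant than in WT in red light and lower in darkness, and 1, in AT5G53050, was lower in the triple mutant in both lights. MSRB2 (AT4G21860, a methionine sulfoxide reductase that repairs oxidised proteins) is of the first kind and has its intron in the 3′ UTR, of 74 bases at chr4:11600023-11600096. In the authors' deposited tables its values over WT were 1.90 for swap1 and 2.12 for the triple mutant under red light, and 1.75 and 2.08 in darkness. Against sfpsrrc1 the triple mutant had it at 0.72 in red light and 0.69 in darkness in the authors' deposited tables, so the values against sfpsrrc1 were smaller than those against WT.

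The others of these 5 bins were in SMO2-1, AT3G13580, LCD1 and AT4G31200, which is SWAP1 itself. SMO2-1 (a sterol methyl oxidase of membrane sterol synthesis) keeps an intron of 247 bases in its coding sequence, which was at 0.97 in both swap1 and the triple mutant in red light and at 0.66 and 0.68 in darkness in the authors' deposited tables. AT3G13580, a ribosomal protein of the L30/L7 family, has a 5′ UTR intron that was at 1.19 in swap1 and 1.69 in the triple mutant in red light, and at 0.95 and 1.503 in darkness, in the authors' deposited tables. For AT3G13580 the triple mutant stood at 1.203 in red light and 1.15 in darkness against sfpsrrc1 in the authors' deposited tables. LCD1, annotated as reticulata-like, has a 5′ UTR intron at 0.70 and 0.72 in red light and 1.39 and 1.48 in darkness in swap1 and the triple mutant in the authors' deposited tables. The exception, AT5G53050, a hydrolase gene whose locus overlaps another, has a 3′ UTR intron of 79 bases that was at -0.94 in red light and -1.08 in darkness in the triple mutant over WT in the authors' deposited tables.

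NF-YC9, a subunit of the NF-Y factor that binds CCAAT boxes, had the lowest FDR of members in both comparisons of swap1 with WT and in the triple mutant in darkness. Its intron 1, of 454 bases in the 5′ UTR, was at 1.54 in red light and 1.52 in darkness in swap1, and at 1.528 and 1.597 in the triple mutant, in the authors' deposited tables. The FDR was 6.75e-67 for swap1 in red light and 1.11e-60 in darkness in the authors' deposited tables. The transcript that keeps this intron, AT1G08970.4, was at 2.34 (SE 0.14) in swap1 in red light and 2.47 (SE 0.13) in darkness in the authors' deposited tables. AT1G08970.3, which splices it, stood at -2.81 (SE 1.13) in red light in swap1, with a base mean of 6.2, in the authors' deposited table. Transcript values of swap1 over WT, in this paragraph and below, are the deposited values with the sign turned.

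AT2G25730 and HISN5B were among the 5 lowest members in each of the 4 comparisons of swap1 or the triple mutant with WT. AT2G25730, a zinc finger FYVE domain protein, has its last intron, number 35, in the 3′ UTR, with values of -1.52 in swap1 and -1.53 in the triple mutant in red light, and of -1.87 in both in darkness, in the authors' deposited tables. The keeping transcript AT2G25730.1 was at -1.57 (SE 0.16) in red light and -1.35 (SE 0.15) in darkness in swap1 in the authors' deposited tables. HISN5B, an enzyme of histidine synthesis, had its last intron, in the coding sequence, at -1.18 in red light and -1.54 in darkness in swap1, and at -1.23 and -1.63 in the triple mutant, in the authors' deposited tables. Its keeping transcript AT4G14910.2 was at -1.5 (SE 0.35) in red light and -2.23 (SE 0.40) in darkness in swap1 in the authors' deposited tables. AT1G50630 had its last intron at -1.38 in swap1 and -1.14 in the triple mutant in red light in the authors' deposited tables.

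The second kind of often-called intron changed sign. Of 46 bins called in swap1 against WT in both lights, 41 had the same sign and 5 were higher in red light and lower in darkness. The 46 bins are 26.1% of those called in red light and 48.9% of those called in darkness. The share with opposite signs was 10.9% in members, 4.49% in 1293 intron bins and 2.89% in 173 other exon bins. These shares depend on how many shared bins were lower in darkness, which members were more often than intron bins. Of the shared bins lower in darkness, 5 members were higher in red light and 22 lower, against 57 and 103 intron bins. By that count members did not change sign more often than intron bins. Between the triple mutant and WT, 82 bins were called in both lights (37.4% of those called in red light and 54.7% of those in darkness), and 7 of them had opposite signs, all again higher in red light and lower in darkness. That is 8.54% of members, 2.59% of 2122 intron bins and 0.985% of other exon bins. Of the bins lower in darkness, 7 members were higher in red light and 30 lower, against 53 and 170 intron bins. Light moved 12 members in both swap1 and WT (27.9% of those called in swap1 and 28.6% in WT), and 7 of them were higher in red light in swap1 and lower in red light in WT, or 58.3%, where 38.2% of 403 intron bins were opposite. The differences between these shares were not tested, since bins are not replicates. Against sfpsrrc1, all 7 bins of the triple mutant called in both lights kept their sign. The comparisons of swap1 and of the triple mutant share the WT libraries, so their values are only given side by side.

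The bins with opposite signs came from 9 introns, of 85 to 527 bases, and 8 of the 9 lay in 5′ UTRs, 7 of the 9 being first introns. All 9 were higher in red light in both swap1 and the triple mutant against WT. They were picked for opposite signs in comparisons that share libraries, so this common sign is partly set by the choice and is no separate result. Of all members equal to an annotated intron, 31.5% were in 5′ UTRs and 37.8% were first introns. Among members lower in WT under red light these shares were 60.6% and 69.7%, and among those lower in swap1 against WT in darkness 39.1% and 37.0%. ZW18 (AT1G58350, a putative serine esterase), whose sites are printed above, has its intron at chr1:21667008-21667179. For red light over darkness it was at 1.19 in swap1 and -1.44 in WT in the authors' deposited tables. Against WT, swap1 had it at 1.47 in red light and -1.16 in darkness, and the triple mutant at 1.81 and -0.73, in the authors' deposited tables. The -0.73 had an FDR of 0.0269 in the authors' deposited table. The keeping transcript AT1G58350.2 went the same way, at 1.04 (SE 0.32) in swap1 and -2.61 (SE 0.33) in WT for red light over dark, and at 1.99 (SE 0.33) in red light and -1.65 (SE 0.32) in darkness for swap1 over WT, in the authors' deposited tables. So the intron was low in swap1 in darkness and in WT in red light, relative to WT in darkness. These comparisons share libraries, and the 4 values close a loop, so they are not 4 separate results.

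LUH (AT2G32700), a co-repressor of transcription close to LEUNIG, has its first intron at chr2:13866927-13867036. In swap1 it was at 1.74 in red light over darkness with an FDR of 1.32e-37, and at 1.63 in red light and -0.84 in darkness against WT, in the authors' deposited tables. The FDR against WT was 4.97e-29 in red light but 0.0191 in darkness in the authors' deposited tables. The triple mutant had LUH at 1.64 in red light and -1.12 in darkness against WT in the authors' deposited tables. Its light response in WT was not called, and the keeping transcript AT2G32700.3 stood at 2.36 (SE 0.23) for swap1 over WT under red light in the authors' deposited table. SPP2, a sucrose phosphatase of sucrose synthesis, was at 0.82 in red light and -0.67 in darkness in the triple mutant in the authors' deposited tables, and its locus overlaps another. VPS28-1, a subunit of the ESCRT-I complex of endosomal sorting, was at 0.95 in red light and -0.64 in darkness in swap1 in the authors' deposited tables. ATPK7, a protein kinase, was at 1.51 in red light and -0.59 in darkness in the triple mutant in the authors' deposited tables, with FDR values of 7.16e-16 and 0.0286. ARV1, which acts in sterol homeostasis, is the 1 intron of the 9 in coding sequence, and light moved it to 0.79 in swap1 and -0.84 in WT in the authors' deposited tables. Its FDR was 7.29e-05 in swap1 and 0.0432 in WT in the authors' deposited tables. The authors called keeping transcripts of these introns in 23 entries over the 4 expression comparisons of WT and swap1, and 23 of 23 had the sign of the bin.

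The 4 members called in the triple mutant against swap1rrc1 in darkness, LUH, AT3G20270, ATPK7 and SPP2, were all among these 9 introns. They were at -0.88, -0.86, -0.68 and -0.62 in the authors' deposited table, in the order named, with the sign unsettled as said of that table. All 4 were also lower in the triple mutant than in WT in darkness, a comparison that uses the same dark libraries of the triple mutant. The overlap is therefore no separate support. AT3G20270, a lipid-binding protein gene with a kept 5′ UTR intron of 377 bases, was called in 7 comparisons, the most of any member.

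**Figure D3:**
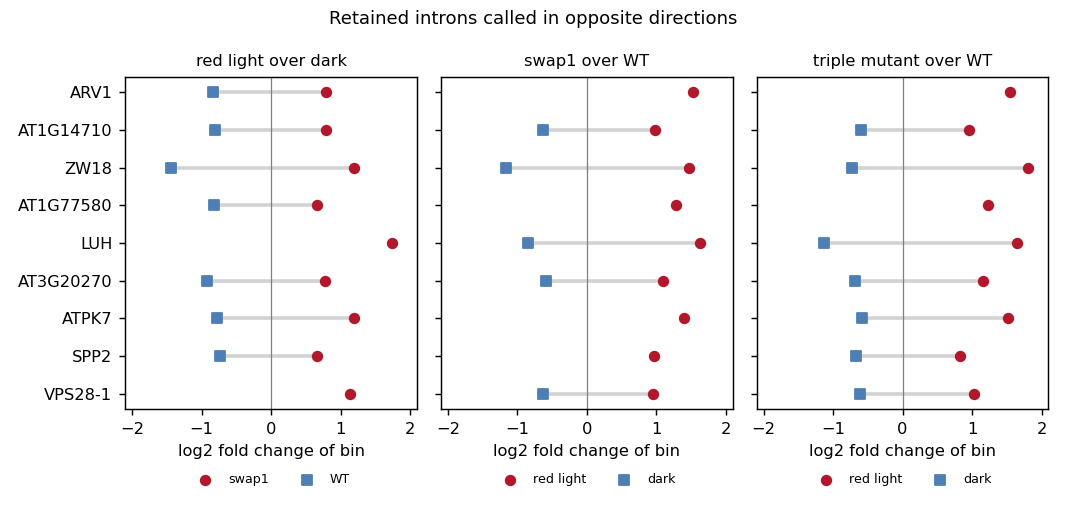
Log2 fold change of the 9 introns called in opposite directions, for red light over dark in swap1 (red circles) and WT (blue squares), and for swap1 and the triple mutant over WT in red light (red circles) and dark (blue squares); a missing point was not called. All 9 are positive in red light against WT, which is partly set by picking them for opposite signs. ZW18 lies at 1.47 in red light and -1.16 in the dark for swap1.

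Members lay in 5′ UTRs more often than other introns do. Of the 352 that equal an annotated intron, 55.4% were in coding sequence, 31.5% in 5′ UTRs and 10.5% in 3′ UTRs. Annotated introns that no transcript keeps are in 5′ UTRs in 4.75% of cases and annotated retained introns in 26.3%, so the members lie close to the class they were drawn from. The place differed with direction. In red light, 43.7% of the higher and 16.3% of the lower members of swap1 over WT were in 5′ UTRs, and 36.8% and 29.3% of those of the triple mutant. In darkness the order was turned round, with 17.8% of the higher and 39.1% of the lower members of swap1 in 5′ UTRs, while 73.3% and 30.4% were in coding sequence. For the triple mutant in darkness, 16 of 80 higher members and 39.7% of the lower ones were in 5′ UTRs, and 70.0% and 36.8% in coding sequence. Under light, 55.6% of members higher in red light in swap1 and 60.6% of those lower in red light in WT were 5′ UTR introns. In the other direction they were 21.4% of members lower in swap1 and 4 of 8 higher in WT, so in WT the share differed little with direction. Intron bins were in 5′ UTRs at lower levels, at 19.4% of those higher in red light in swap1 and 20.5% of those lower in red light in WT. For swap1 over WT they showed the same turn as members. There, 11.1% of higher and 5.49% of lower intron bins were in 5′ UTRs in red light, and 3.53% and 16.6% in darkness.

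**Figure D4:**
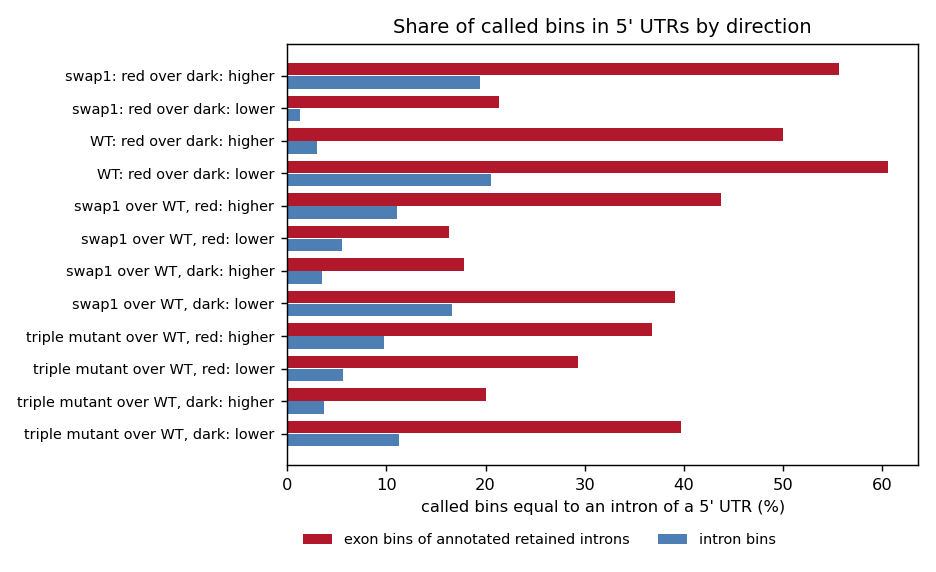
Share of called bins that equal an intron of a 5′ UTR, in percent, by comparison and direction, for exon bins of annotated retained introns (red) and intron bins (blue). The red bars are longest for members lower in WT under red light, at 60.6%, and shortest for those lower in swap1 against WT in red light, at 16.3%.

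The coding members mostly carry a stop codon. Of 195 distinct coding members, 152 (77.9%) hold an in-frame stop when the reading frame of the splicing transcript runs on into the intron, and the median distance to its end was 34.5 bases. Another 26 hold no stop and are a multiple of 3 long, so that reading could go on in frame. CINV2, a cytosolic invertase, has a stop within its first 5 intron bases, and its intron was at 2.59 in swap1 and 2.12 in the triple mutant in darkness in the authors' deposited tables. The signal is low: its keeping transcript AT4G09510.2, at 3.47 (SE 1.2) in swap1 in darkness, had a base mean of 6.1 in the authors' deposited table. U2AF65A encodes the large subunit of the U2 auxiliary factor, which binds the pyrimidine stretch ahead of the 3′ splice site. Its intron 11 of 12 holds no in-frame stop, and its length of 100 bases is no multiple of 3, so keeping it shifts the frame. The 2 introns are shown whole, with the first in-frame stop in capitals where there is one.
CINV2 intron 5, chr4:6021608-6021683, minus strand: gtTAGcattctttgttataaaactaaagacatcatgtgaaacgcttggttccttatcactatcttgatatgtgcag
U2AF65A intron 11, chr4:17294604-17294703, minus strand: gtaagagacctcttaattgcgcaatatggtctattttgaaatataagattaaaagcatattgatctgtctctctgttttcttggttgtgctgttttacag

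Of the loci with an annotated retained intron, 5.4% held a member in any comparison, the share against which the counts over the gene lists below are to be read. Of 28 genes of splicing factors other than SR proteins and the mutated genes, 13 have such an intron and 3 held a member. The first is U2AF65A (AT4G36690), whose intron was at -1.003 in red light and -1.212 in darkness in swap1, and at -1.08 and -1.43 in the triple mutant, in the authors' deposited tables. The keeping transcript AT4G36690.2 was at -1.72 (SE 0.13) in red light and -1.87 (SE 0.14) in darkness in swap1 in the authors' deposited tables. The others were SKB1, an arginine methyltransferase also called PRMT5, at 0.97 in red light, and FYD, at -0.25 in red light and -0.23 in darkness, both in the triple mutant in the authors' deposited tables. Of 20 SR protein genes, 13 have an annotated retained intron and 0 held a member. Of the same 20, 18 held a called intron bin, as did 15 of the 28 other splicing factor genes. Among 24 clock genes, 12 with such an intron, only LNK2 (AT3G54500), a co-activator of clock genes, held a member, at 0.65 in swap1 and 1.03 in the triple mutant in red light in the authors' deposited tables. Of 24 genes of photoreceptors and light signalling, 9 with such an intron, 2 held a member, and of 14 repressors of photomorphogenesis, 10 with such an intron, 1 did. These were PHOT2, a blue light receptor, at 0.89 in darkness, HYH, a homolog of the light factor HY5, at 0.32 in red light, both in the triple mutant, and PIL2 (PIF6) at 0.61 in red light over darkness in WT, in the authors' deposited tables. SWAP1 itself (AT4G31200) held a member in its first intron, of 214 bases in the 5′ UTR, at 1.70 in red light and 0.86 in darkness in swap1 and at 1.82 and 0.83 in the triple mutant in the authors' deposited tables. Against sfpsrrc1 it was at 1.27 in red light and 1.14 in darkness in the triple mutant in the authors' deposited tables. The allele swap1-1 is one of this gene, so an effect of the allele itself on that intron and an effect of losing the protein cannot be told apart.

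The 3′ ends of the introns differed with direction. Of the triple mutant's higher members in darkness, 73.8% had a cytosine before the final AG, against 45.6% of its lower ones, and 7.50% and 29.4% had an adenine or guanine there. In red light the shares with cytosine in higher and lower members were 63.7% and 46.3% in the triple mutant and 63.5% and 46.5% in swap1, and in darkness 71.1% and 47.8% in swap1. Annotated introns that no transcript keeps have it in 63.5% of cases. Intron bins showed the same order, with 71.0% of higher and 47.1% of lower ones in the triple mutant in darkness. The 3′ site score, which is higher the more a site looks like the average site, was 8.51 bits at the median in higher members and 6.67 in lower ones in the triple mutant in darkness, while the 5′ site score was 5.45 and 7.36. In all 4 comparisons of these mutants with WT the median 3′ score was greater, and the median 5′ score smaller, in higher than in lower members. Median length had no such common order: in red light it was 189.5 bases in higher and 94.0 in lower members of swap1 and 151.0 and 97.0 in those of the triple mutant, and in darkness 152.0 and 103.5 in swap1 but 103.5 and 107.0 in the triple mutant. Over all distinct members the median length was 107 bases and the range 3 to 1533. The sequences printed above are single cases: MSRB2, higher in the mutants, ends in CAG, AT2G25730, lower, ends in AAG, while NF-YC9, higher, ends in TAG.

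**Figure D5:**
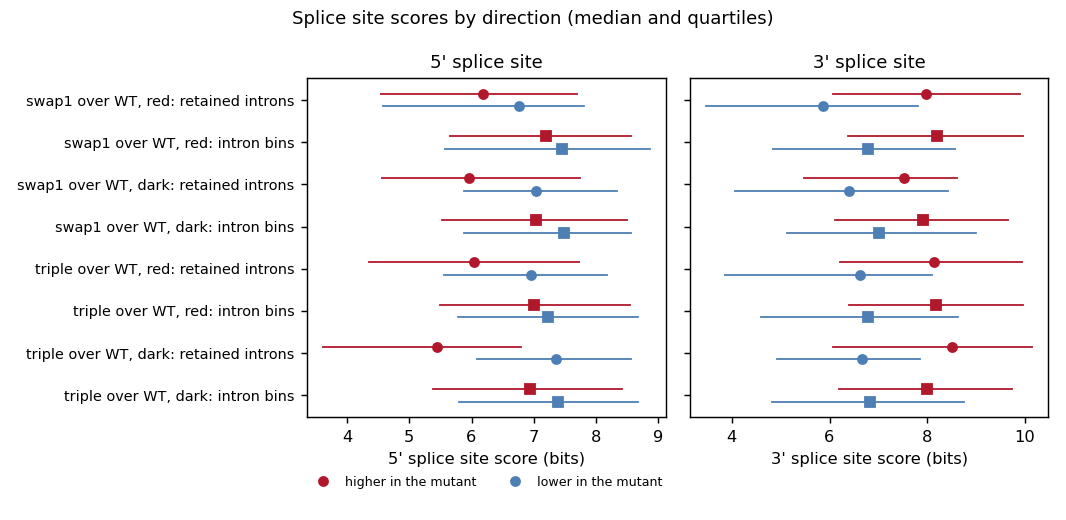
Splice site scores in bits at the 5′ site (left) and 3′ site (right), as median (symbol) and quartiles (line), for members (circles) and intron bins (squares) higher (red) or lower (blue) in the mutant. In the triple mutant in the dark the 3′ score of members is 8.51 in higher and 6.67 in lower introns.

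The other called introns of the members' genes were mostly higher in the mutants, as intron bins were in general. Of 44 members lower in the triple mutant than in WT in red light, 26 lay in genes with a called intron bin, and in 22 of these 26 the median of those bins was higher, where 94.1% of all called intron bins were. In darkness the count was 16 of 21, of 70 lower members, where 85.8% of intron bins were higher. For swap1 over WT it was 21 of 25 in red light, of 46 lower members, where 95.2% of intron bins were higher, and 11 of 15 in darkness, of 49, where 85.2% were. Of the higher members of swap1 in red light with such a bin, 55 of 57 had a higher median of the others. AT2G45380 was the only locus with 3 members, and its introns were at 0.75, 0.71 and 0.30 under red light in the triple mutant in the authors' deposited table.

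Junction reads give a separate view of the same regions, without a sign. Such evidence was called for 79 member entries (10.5%) and for 1.59% of intron bin entries, with inclusion changes of 0.3036 to 0.5785. In red light 9 of the 13 members of swap1 over WT with such evidence were higher in coverage, and 19 of 23 of the triple mutant. In darkness 0 of 13 were in swap1 and 5 of 27 in the triple mutant. Of all called members, 73.9% in swap1 and 79.9% in the triple mutant were higher in red light, and 47.9% and 53.3% in darkness. The share among intron bins with such evidence was not computed, so these counts are no result about retained introns in particular. The largest change, 0.5785, was that of ATG13, an autophagy protein whose 5′ UTR intron was at -0.91 in the triple mutant in darkness in the authors' deposited table. Transcript values cover the same reads, and those of the light comparisons served to fix the sign of the bin values, so they are no separate support. In the 4 comparisons of WT and swap1, the authors called a keeping transcript for 215 of 355 members, and 200 of these had the sign of the bin. A splicing transcript was called for 49, of which 32 had the opposite sign.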

How the data were processed

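The members and gene lists were chosen with earlier results of these data known. Per the submitters' processing notes and the series design text, 150-bp reads were aligned with STAR to TAIR10 and analysed with HTSeq, DESeq2 and ASpli 2.0. The authors' 12 splicing tables give, per the file headers, a log2 fold change and an FDR (an adjusted p-value) for each bin. For junction regions the deposited change is a fraction without a sign. Named there are a bin fold change of 1.5, a bin FDR of 0.05 (4 tables) or 0.03 (8 tables) and, for junctions, a change of 0.3. Of the member entries, 101 lie under 0.585, the log2 of 1.5, in absolute value. The authors' 4 expression tables give, per transcript, a log2 fold change, its standard error, an adjusted p-value and the base mean, a normalised signal. They hold called features only and no value per library, so depth is unknown.

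The splicing headers write the first group minus the second, but the values were read as second over first group (red over dark, mutant over WT, triple over double mutant). In the light expression tables LHCB2.2, a light-induced gene, was at 5.5 in swap1 and 4.94 in WT, so these are red over dark. Members had the sign of their keeping transcripts in 45 of 54 cases in the light tables, which sets the overall sign of the bins. Loop closure over WT and swap1 sets only signs relative to each other. With all 4 tables read alike, 49 bins closed to a median of 0.001 log2 units, against 0.469 for the next best choice. The expression tables of genotype closed only when turned. Transcript values of swap1 over WT are therefore printed with the sign opposite to the deposited one. Outside the loop, called bins had the sign of swap1 over WT in 5463 of 5463 (red) and 2310 of 2310 (dark) for the triple mutant over WT, which shares the WT libraries, and in 222 of 232 and 222 of 228 over sfpsrrc1. This reading assumes that losing SWAP1 acts alike in those backgrounds. The tables against swap1sfps and swap1rrc1 shared few called bins with swap1 over WT. In darkness 0 of 1 and 12 of 18 had its sign, and in red light 5 of 6 and 4 of 4. Both groups of these tables carry swap1-1, so the counts do not set the sign. Bins of the mutated genes were not used for this.

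Bins were matched to TAIR10.1 (RefSeq), whose nuclear coordinates held 98.3% of 16971 called intron bins as annotated introns. An intron's place is that in the lowest-numbered transcript that splices it. Splice site scores are log-odds in bits from annotated introns of at least 30 bases that no transcript keeps, over 3 exon and 6 intron bases at the 5′ site and 14 intron bases and 1 exon base at the 3′ site. The sequence and loop steps were tested on simulated data. The rule for naming took the 5 highest and 5 lowest members of each comparison, bins called in at least 6, members in the gene lists, members that changed sign between lights or genotypes, and loci with at least 3 members. Not all of these are printed. Bins of a locus share reads with any overlapping locus, and whether counting used strand is not given in the sources used here. Python 3.11.15, pandas 2.3.3 and numpy 2.4.6 were used. Alternatives were FDR, fold, event label, loci for bins, junction evidence, annotation and overlap.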

Additional observations from a re-analysis of the deposited data

How the results depend on the processing

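No paired analysis was possible because values of single libraries were not analysed, only comparisons between groups, and for the same reason no replicate could be left out and no count test run. Of 109 alternatives computed, 97 kept the main value within its 95% interval, within 1.5 times its count or, for length, within the standard deviation. The cause was not tested for the rest. The interval treats bins as independent, which they are not, and is wide where members are few. It served as a yardstick only, and the count of 97 is no measure of certainty. With IR* bins alone, the share of members that were higher was 8.33% in WT under light, 33.3% in swap1 against WT in darkness, 45.0% in the triple mutant against WT in darkness (below 50, where all members gave 53.3%), and 100% of 2 in the triple mutant against sfpsrrc1 in red light. With junction support alone it was 69.2% for swap1 and 82.6% for the triple mutant over WT under red light, 0.0% and 18.5% in darkness, and 0.0% of 1 in WT and of 2 in swap1 under light. With log2 fold changes of 1 or more in size it was 0.0% of 2 in WT under light. The excess of cytosine before the AG in higher over lower members, in percentage points, was 57.1 in swap1 and 40.5 in the triple mutant in red light at a log2 fold change of at least 1, and 50.5 in the triple mutant in darkness with IR* bins. Alternatives on that base, on overlapping loci and on lists and transcripts were chosen after seeing the data.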
